A study of Mus musculus with 6 samples.

Results

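The transcripts of 10 genes of the Hippo pathway were examined in mouse liver tumour cell lines, namely the co-activator genes Yap1 and Wwtr1, the transcription factor genes Tead1, Tead2, Tead3 and Tead4, and the target genes Ctgf, Cyr61, Ankrd1 and Amotl2. They were chosen by gene name from the 53465 Ensembl genes of the count table, and all 10 were among the 11510 genes with enough counts to be tested. The 6 lines were derived from tumours of different C57BL/6 mice, 3 with the genotype Myc_Utx (lines 2A, 2B and 2D, from tumours deficient in Kdm6a) and 3 with the genotype Myc_p53 (lines 1, 2 and 3, from p53 knockout tumours), which served as the control. Tumours were started in adult female mice by hydrodynamic injection of a Myc transposon together with a Cas9 and guide RNA plasmid, so all 6 lines share the Myc transgene and Cas9 delivery, and each group also carries a lesion that the other lacks. A loss of Kdm6a and an intact Trp53 locus therefore cannot be told apart in this comparison. Each line was grown out from 1 tumour in DMEM with serum on collagen-coated plates, and counts as 1 replicate.

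The Hippo pathway is a kinase cascade that restrains the co-activators YAP (from Yap1) and TAZ (from Wwtr1). When the kinases MST and LATS are active, YAP and TAZ are phosphorylated and held in the cytoplasm. When they are inactive, YAP and TAZ enter the nucleus, bind TEAD transcription factors and switch on genes of growth, adhesion and matrix. In liver the pathway is known for limiting organ size and for keeping hepatocytes in their differentiated state. Because YAP and TAZ are controlled mainly at the protein level, mRNA levels of the co-activators and of their targets are separate measurements.

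Total counts lay between 4656103 and 6937497 reads per line. Values are given as TMM-normalized CPM, which are counts scaled to a common library size after a correction for composition, and fold changes are Myc_Utx over Myc_p53 on the log2 scale, with their standard error (SE). The groups were compared by edgeR (quasi-likelihood F test) and p values were adjusted after Benjamini and Hochberg over all 11510 genes, and a gene was called at an adjusted p under 0.05. Trp53 was at 276 to 296 CPM in Myc_Utx and at 32.4 to 35.8 CPM in Myc_p53 lines, a log2 fold change of 3.07 (adjusted p = 0.000488). Kdm6a overlapped between the groups, with 39.7, 45.7 and 49.0 CPM in Myc_Utx lines and 69.5, 64.5 and 42.5 CPM in Myc_p53 lines (log2 fold change -0.39, SE 0.22, adjusted p = 0.243). The RNA sequencing paragraph of the study's methods names Myc;sgMll3 lines, whereas the labels and the study's results name Kdm6a. For cell lines from Myc;sgKdm6a tumours the study reports indels at Kdm6a and loss of the Kdm6a protein. Neither was measured here. Kmt2c, the mouse gene for MLL3, was at 69.6, 77.0 and 86.6 CPM in Myc_Utx lines and at 148, 116 and 121 CPM in Myc_p53 lines (log2 fold change -0.73, SE 0.15, adjusted p = 0.0289). The lines are labelled as liver tumour cells, but most hepatocyte markers were low, with Alb at 0.891 to 4.87 CPM and 5 of 13 markers at or under 3 counts in every line. Fgb, a fibrinogen chain, was at 2.19, 1.12 and 44.3 CPM in Myc_Utx lines and at 25.3, 18.5 and 14.8 CPM in Myc_p53 lines. Apob, the apolipoprotein of secreted lipid particles, was at 0, 1.12 and 0.223 CPM in Myc_Utx lines and at 13.9, 13.2 and 53.9 CPM in Myc_p53 lines. The summed level of the 13 markers was 7.38 to 47.4 CPM in Myc_Utx lines and 36.7 to 84.4 CPM in Myc_p53 lines, and its part in the results was not tested.

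TEAD factors bind DNA at the 6-base element GGAATG, which reads CATTCC on the other strand. RefSeq start sites on GRCm38.p6 were at hand for 7 of the 10 genes, and the 250 bases before the start site nearest to that of the count table were searched on both strands. No window was at hand for Tead1, Tead4 and Ctgf. The element was present before the start of 6 of the 7 genes, and in 12.6% of the 32851 windows of the same length in the table. These matches are letters in a window and no binding was measured here. They are shown because they are the known recognition element of the factors described here. Each line below gives 30 bases in the direction of transcription, with the element in capitals.
Ankrd1, chr19:36120037-36120066, minus strand, 210 bases before the start: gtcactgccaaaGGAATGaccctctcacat
Ankrd1, chr19:36119950-36119979, minus strand, 123 bases before the start: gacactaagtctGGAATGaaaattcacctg
Wwtr1, chr3:57576029-57576058, minus strand, 136 bases before the start: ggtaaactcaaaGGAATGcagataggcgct
Yap1, chr9:8004720-8004749, minus strand, 141 bases before the start: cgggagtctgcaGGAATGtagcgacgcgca
Tead3, chr17:28350970-28350999, minus strand, 182 bases before the start: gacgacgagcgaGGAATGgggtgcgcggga
Cyr61, chr3:145650071-145650100, minus strand, 103 bases before the start: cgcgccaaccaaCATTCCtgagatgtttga
Amotl2, chr9:102717727-102717756, plus strand, 65 bases before the start: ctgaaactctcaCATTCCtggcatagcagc

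In the window before Tead2 the letters were not found. Cyr61 and Amotl2 carried the element on the opposite strand, and Ankrd1 carried it at 2 places. The Amotl2 start site used here lies 1132 bases from the start in the count table, so that its window falls within the gene as annotated there.

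Only Wwtr1 was called among the 10 genes, and it fell about 2-fold in Myc_Utx lines while Yap1 did not differ beyond the spread between lines. That is 1 of 10 genes called, against 14.7% of all genes tested. By direction, 1 of 10 was called lower against 7.69% of all genes, and 0 of 10 was called higher against 6.99%. At an unadjusted p under 0.05 there were 6 lower and 0 higher, where 18.3% of all genes were lower and 16.6% higher, and DESeq2 also called 0 higher. Over all genes edgeR called 805 higher and 885 lower, and scaling by total counts alone gave 601 and 1009. The 10 genes had log2 fold changes with a median of -0.77, with 7 below 0 and 3 above it, beside a median of -0.01 over all genes tested. Levels of 4 of the 10, Wwtr1, Tead1, Tead3 and Amotl2, did not overlap between the groups, each being lower in every Myc_Utx line, against 42.0% of all genes tested. The share called in either direction and the share without overlap were near those of all genes, and the single call is too few to read against its background.

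**Figure D1:**
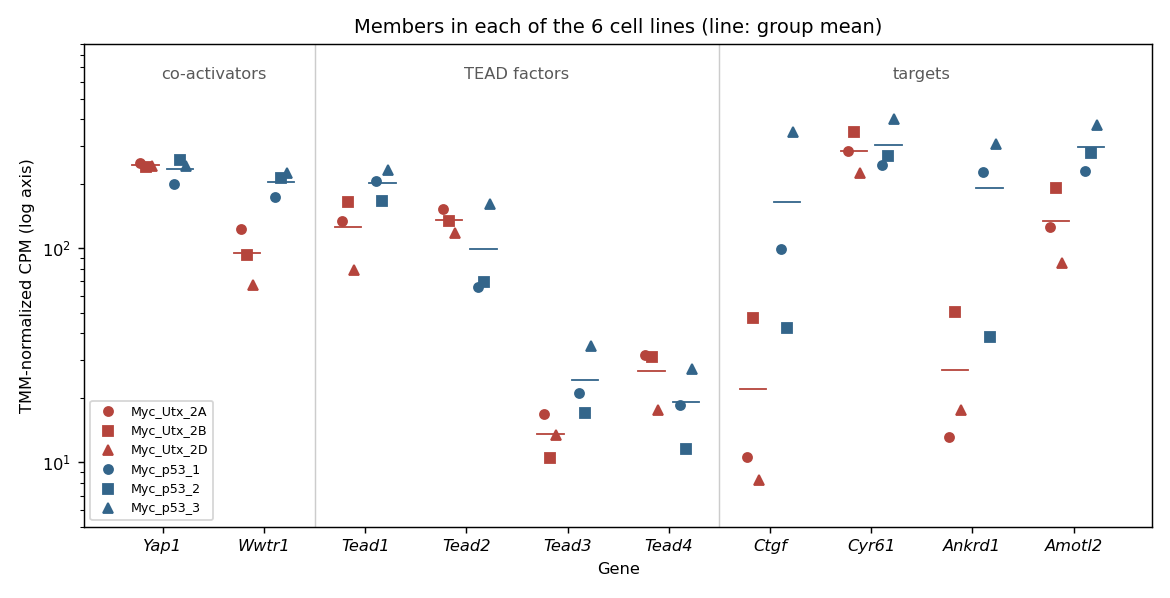
TMM-normalized CPM (vertical log axis) of each of the 10 genes (horizontal axis) in the 3 Myc_Utx lines (red) and 3 Myc_p53 lines (blue), with marker shape for the line and a short bar for the group mean. Wwtr1 and Amotl2 were lower in each Myc_Utx line than in each Myc_p53 line, Ctgf and Ankrd1 spread widely within both groups, and Yap1 and Cyr61 lay close together in all 6.

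Wwtr1 (ENSMUSG00000027803, chr3:57455649-57575910) encodes TAZ. It was at 124, 93.1 and 67.0 CPM in Myc_Utx lines 2A, 2B and 2D, and at 174, 214 and 224 CPM in Myc_p53 lines 1, 2 and 3. The highest Myc_Utx line was below the lowest Myc_p53 line. The means were 94.6 ± 28.3 (SD, n = 3) against 204 ± 26.4 (SD, n = 3) CPM, with a log2 fold change of -1.11 (SE 0.24, adjusted p = 0.0325). The two-sided exact permutation test gave p = 0.1, the smallest value that 3 lines against 3 allow. In the 6 fits that each omitted 1 line, its fold change stayed on the log2 scale between -1.33 and -0.89, and the adjusted p was above 0.05 in each of them. It was 0.0630 without Myc_Utx 2A, 0.104 without 2B and 0.0871 without 2D, and 0.05002 without Myc_p53 1, 0.0554 without 2 and 0.0966 without 3.

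Yap1 (ENSMUSG00000053110, chr9:7931999-8004596) encodes YAP. It had 250, 241 and 243 CPM in Myc_Utx lines and 200, 258 and 243 CPM in Myc_p53 lines, so that the Myc_Utx lines lay inside the range of the Myc_p53 lines. The log2 fold change was 0.06 (SE 0.12, adjusted p = 0.733). Its 3 Myc_Utx lines differed from each other by no more than 1.04-fold, the narrowest range of the 10 genes in that group. The paralogs thus had different values under the same contrast, and the difference between their fold changes was not tested.

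Per kilobase of transcript, using the length in the count table (9257 bases for Yap1 and 4779 for Wwtr1), the level of Wwtr1 was above that of Yap1 in the Myc_p53 lines and below it in the Myc_Utx lines. The ratio of Yap1 to Wwtr1 CPM per kb was 1.04, 1.34 and 1.87 in Myc_Utx 2A, 2B and 2D. In Myc_p53 1, 2 and 3 it was 0.593, 0.624 and 0.560. The ratios of the groups did not overlap, and they varied little among Myc_p53 lines. Wwtr1 itself did not overlap either, as for 42.0% of all genes tested, and no such background was computed for ratios. Without division by length the same ratio of CPM was 2.02 to 3.62 in Myc_Utx lines and 1.09 to 1.21 in Myc_p53 lines, so the order of the paralogs in Myc_p53 lines depends on the length used.

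**Figure D2:**
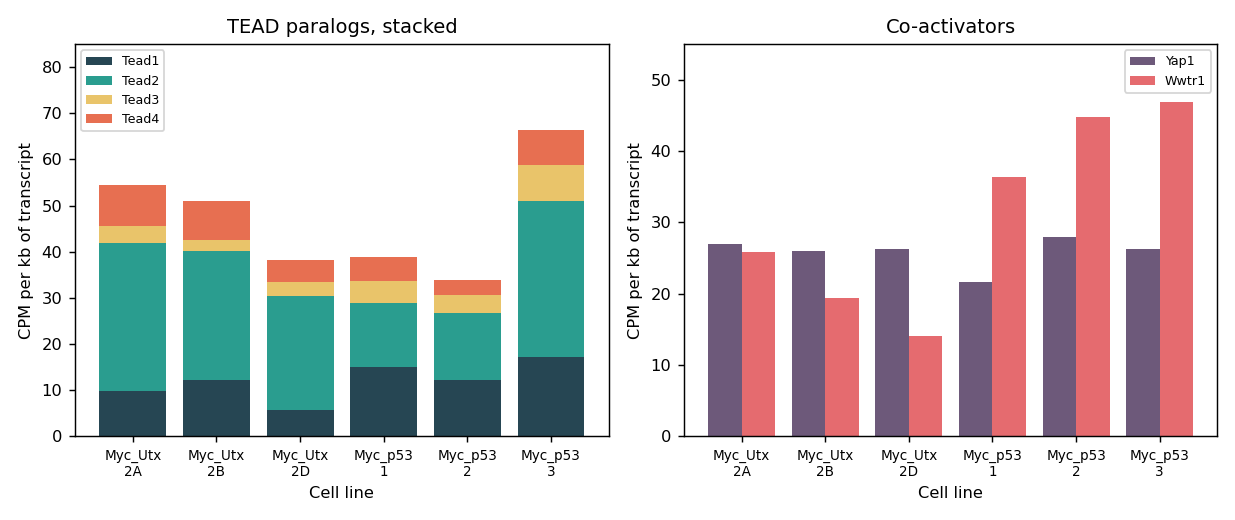
CPM per kb of transcript in each cell line, with the TEAD paralogs stacked on the left and Yap1 beside Wwtr1 on the right, on linear axes that start at 0. Tead2 took the largest part of the stack in 5 of the 6 lines, and Wwtr1 stood above Yap1 only in the 3 Myc_p53 lines.

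The TEAD genes encode the DNA-binding partners of YAP and TAZ, and none of the 4 was called. Tead1 (ENSMUSG00000055320, chr7:112679318-112906807) was at 133, 165 and 78.8 CPM in Myc_Utx lines and at 205, 166 and 233 CPM in Myc_p53 lines. The groups did not overlap, but Myc_Utx 2B and Myc_p53 2 were almost level, and the log2 fold change was -0.68 (SE 0.28, adjusted p = 0.140). Tead3 (ENSMUSG00000002249, chr17:28331671-28350805) was at 16.8, 10.5 and 13.4 CPM against 21.2, 17.1 and 34.8 CPM. These did not overlap either, again by a narrow gap, with a log2 fold change of -0.85 (SE 0.33, adjusted p = 0.126).

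Tead2 (ENSMUSG00000030796, chr7:45215753-45233644) and Tead4 (ENSMUSG00000030353, chr6:128224288-128300823) had fold changes of the other sign. Tead2 was at 153, 134 and 118 CPM in Myc_Utx lines and at 66.1, 69.5 and 161 CPM in Myc_p53 lines, where line 3 alone was above every Myc_Utx line. Its log2 fold change was 0.44 (SE 0.36, adjusted p = 0.421), and 0.99 (adjusted p = 0.0547) without Myc_p53 3. Tead4 was at 31.7, 30.9 and 17.6 CPM against 18.5, 11.5 and 27.2 CPM, with a log2 fold change of 0.48 (SE 0.38, adjusted p = 0.399). Both genes overlapped between the groups.

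The summed level of the 4 TEAD genes, in CPM per kb, was 54.4, 51.04 and 38.3 in Myc_Utx lines and 38.9, 33.9 and 66.4 in Myc_p53 lines, with overlap. Within that sum, Tead2 made up 58.8%, 54.7% and 64.1% in Myc_Utx lines and 35.5%, 42.9% and 50.8% in Myc_p53 lines. Tead1 made up 18.1%, 23.8% and 15.2% in Myc_Utx lines and 38.9%, 36.2% and 25.9% in Myc_p53 lines. The ranges of both shares did not overlap between the groups, nor did the level of Tead1 itself, and no background was computed for such shares. Tead3 took 4.67% to 7.93% in Myc_Utx lines and 11.4% to 12.4% in Myc_p53 lines, and Tead4 took 12.8% to 16.8% and 9.44% to 13.2%. These shares are descriptions without a test, and they depend on the length of 13570 bases that the table gives for Tead1. Without division by length, Tead2 was at 0.811 to 1.49 times the CPM of Tead1 in Myc_Utx lines and at 0.322 to 0.692 times in Myc_p53 lines.

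The target genes fell into 2 kinds, with Ctgf and Ankrd1 spread widely over the lines and Cyr61 and Amotl2 more even. None of the 4 was called. Ctgf (ENSMUSG00000019997, chr10:24595442-24598683) encodes a secreted matrix protein, connective tissue growth factor, and is widely used as a readout of YAP and TAZ. It was at 10.6, 47.2 and 8.24 CPM in Myc_Utx lines and at 99.2, 42.4 and 349 CPM in Myc_p53 lines. Myc_Utx 2B lay above Myc_p53 2, so the groups overlapped. The log2 fold change was -2.89 with a SE of 0.99 and an adjusted p of 0.0956. Myc_p53 lines differed from each other by up to 8.23-fold and Myc_Utx lines by up to 5.73-fold. The log2 fold change was -1.69 (adjusted p = 0.253) without Myc_p53 3 and -4.10 (adjusted p = 0.0924) without Myc_Utx 2B. DESeq2, another count test, gave an adjusted p of 0.0403 with all 6 lines.

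Ankrd1 (ENSMUSG00000024803, chr19:36111965-36119844) encodes a muscle ankyrin repeat protein that is also a common YAP readout. It had 13.2, 50.6 and 17.6 CPM in Myc_Utx lines and 228, 38.4 and 307 CPM in Myc_p53 lines. As for Ctgf, the high lines were Myc_p53 3 and 1, followed by Myc_Utx 2B and Myc_p53 2. The log2 fold change was -2.81 (SE 0.85, adjusted p = 0.0704). It was called by DESeq2 (adjusted p = 0.0195), when genes with low counts were kept (adjusted p = 0.0438) and without Myc_p53 2 (log2 fold change -3.29, adjusted p = 0.0253), but in no other fit with a line left out.

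Cyr61 (ENSMUSG00000028195, chr3:145646976-145649981) encodes a matrix protein of the same family as Ctgf. It was at 284, 348 and 225 CPM in Myc_Utx lines and at 245, 270 and 400 CPM in Myc_p53 lines. The ranges overlapped almost fully. Its log2 fold change was -0.09 (SE 0.24, adjusted p = 0.802), and the sign turned without Myc_Utx 2D (0.07) and without Myc_p53 3 (0.15). Per kilobase it was the highest of the 10 genes in 5 of the 6 lines, at 111 to 198 CPM per kb, and Ankrd1 was above it in Myc_p53 1 with 129 CPM per kb against 122. Wwtr1, the called gene, and Cyr61, whose level was similar in both groups, both carry the TEAD element, and the 250 bases before each start site are shown in full for comparison, with that element in capitals.
Wwtr1, chr3:57575911-57576160, GRCm38.p6, minus strand: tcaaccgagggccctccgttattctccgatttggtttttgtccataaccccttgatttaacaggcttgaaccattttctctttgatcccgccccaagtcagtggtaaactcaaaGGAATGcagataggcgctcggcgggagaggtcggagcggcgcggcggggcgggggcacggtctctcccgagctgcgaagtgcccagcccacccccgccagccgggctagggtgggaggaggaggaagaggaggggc
Cyr61, chr3:145649986-145650235, GRCm38.p6, minus strand: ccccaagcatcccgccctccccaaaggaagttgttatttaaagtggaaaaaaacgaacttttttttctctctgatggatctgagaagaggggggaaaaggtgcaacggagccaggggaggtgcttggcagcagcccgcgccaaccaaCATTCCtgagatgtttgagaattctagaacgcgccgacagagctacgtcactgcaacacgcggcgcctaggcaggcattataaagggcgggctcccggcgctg

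Amotl2 (ENSMUSG00000032531, chr9:102716672-102733418) encodes a junction protein, an angiomotin relative, that is a YAP target and itself binds and restrains YAP. It was at 126, 191 and 85.3 CPM in Myc_Utx lines and at 230, 280 and 377 CPM in Myc_p53 lines. All Myc_Utx lines were below all Myc_p53 lines. The log2 fold change was -1.14 (SE 0.32, adjusted p = 0.0612), and the adjusted p was 0.00583 by DESeq2 and 0.0450 when genes with low counts were kept. With a line left out it stayed between -1.47 and -0.88, with adjusted p from 0.0701 to 0.161.

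**Figure D3:**
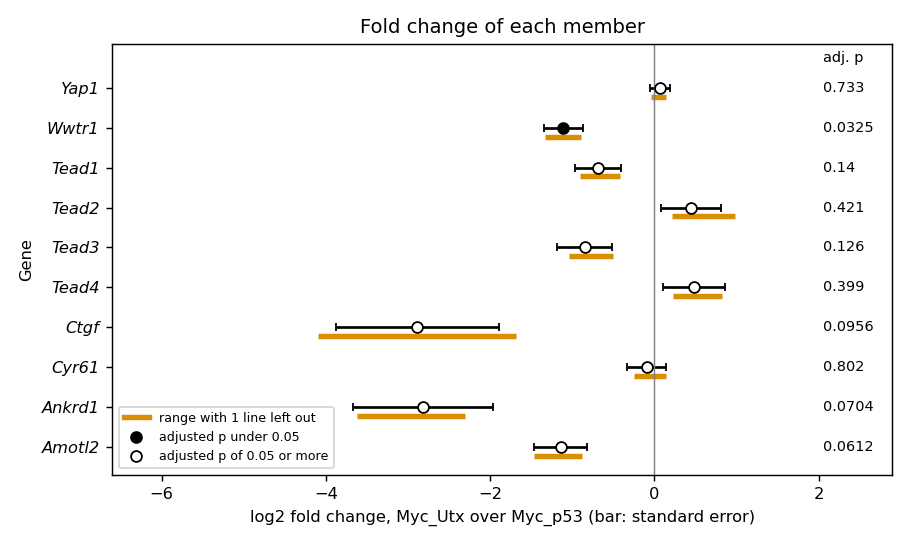
Log2 fold change of each gene (horizontal axis, Myc_Utx over Myc_p53) with its standard error (SE), an orange bar for the range over the 6 fits that leave out 1 line each, and the adjusted p on the right. Wwtr1 is the one filled point, and the bars of Ctgf and Ankrd1 are the widest.

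The lines themselves differed across the members. Myc_p53 3 had the highest CPM for 8 of the 10 genes, all but Yap1 and Tead4, and Myc_Utx 2D had the lowest for 5. Myc_p53 3 was also the library with the most reads and Myc_Utx 2D the one with the fewest, and the part of depth in this order was not tested. Genes that overlap the members on the chromosome had no more than 4 counts in any line. How reads shared with them were assigned was not examined, so these counts do not give the number shared.

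Markers of other cell types also differed between the lines. The summed level of 10 macrophage markers was 2.79 to 5.99 CPM in Myc_Utx lines and 98.6, 39.9 and 108 CPM in Myc_p53 1, 2 and 3. Of the 10, 7 were higher in every Myc_p53 line. Of the 6 that were tested, 5 did not overlap, beside 42.0% of all genes tested without overlap in either direction. Too few counts to be tested were found for 4 of the 10. Cd68 overlapped, at 2.79, 3.93 and 5.34 CPM in Myc_Utx lines and 10.3, 3.34 and 6.84 CPM in Myc_p53 lines. Csf1r, the receptor that defines macrophages, was at 0, 0.187 and 0 CPM in Myc_Utx lines and at 40.9, 7.23 and 34.6 CPM in Myc_p53 lines. Lyz2 was at 0, 0.936 and 0 CPM against 32.2, 19.3 and 48.05 CPM. Adgre1 and Ptprc, counted among the 7, were not tested, and Ptprc was under 3 counts or at 3 in every line. Among 9 bile duct and progenitor markers 5 were higher in every Myc_p53 line. Of these 5, Krt7 had 3 counts and Cldn4 had 1 count in Myc_p53 2, and neither was tested. Of the 6 that were tested, 3 did not overlap, beside the same 42.0%. The sums of the 9 markers were 554 to 1463 CPM in Myc_Utx and 174 to 1605 CPM in Myc_p53 lines. Krt19, a bile duct keratin, had 46.7, 4.68 and 28.7 CPM in Myc_Utx lines and 330, 60.2 and 352 CPM in Myc_p53 lines. The list did not move as one. Sox9, a progenitor transcription factor, was at 40.5, 74.2 and 32.5 CPM in Myc_Utx lines and at 35.1, 20.6 and 20.96 CPM in Myc_p53 lines, and Spp1, which made up most of the sum in Myc_Utx lines, was at 611, 1362 and 449 CPM against 997, 70.8 and 1018 CPM. Krt19 and Spp1 were lowest among Myc_p53 lines in line 2, as were Ctgf and Ankrd1. Among Myc_Utx lines, Krt19 was lowest and Spp1 highest in 2B, where Ctgf and Ankrd1 were highest. The sum of 12 stellate and fibroblast markers was 1949 to 2717 CPM in Myc_Utx lines and 36.5, 3499 and 512 CPM in Myc_p53 1, 2 and 3. Col3a1 made up most of it in Myc_Utx lines (1731, 2301 and 2558 CPM) and in Myc_p53 2 (2721 CPM). The list did not move together, and Col1a1 was at 35.3, 34.45 and 4.01 CPM in Myc_Utx lines and 3.32, 144 and 236 CPM in Myc_p53 lines. The 9 endothelial markers summed to 2.59 to 4.82 CPM in all 6 lines, with Pecam1 and Cdh5 at or near 0. The study states that the primary cultures were passaged until no other cell types could be seen in them. The part of the macrophage and bile duct genes in the values of Ctgf, Ankrd1 and Wwtr1 was not tested. In bulk RNA fewer cells of a kind and less RNA per cell cannot be told apart.

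Of the other pathway genes, 82 were listed in 5 groups, and of the 76 tested 12 were called lower and 2 higher in Myc_Utx lines, including Fat4, Cnn1 and Myl9, which had fewer than 10 counts in several lines of the lower group. Their median log2 fold change was -0.47, with 60 below 0, beside -0.01 and 5846 of 11510 over all genes tested. Together 18.4% were called, beside the 14.7% of all genes. With offsets for transcript length and GC content 4 were called lower and 3 higher, and with DESeq2 26 and 3. With 1 line left out, 0 to 14 were called lower, the lowest numbers being 0 without Myc_Utx 2A or 2D and 1 without Myc_Utx 2B or Myc_p53 3. Without Myc_p53 1 there were 7.

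In the kinase core, 4 of the 19 tested genes fell, beside 7.69% of all genes, with a median log2 fold change of -0.33. Stk4, which encodes the kinase MST1, was at 70.2, 89.3 and 79.3 CPM against 134, 114 and 137 CPM, with a log2 fold change of -0.69 (SE 0.14, adjusted p = 0.0289). Taok1 and Taok3 encode kinases that activate MST, and they had log2 fold changes of -0.59 (adjusted p = 0.0289) and -0.91 (adjusted p = 0.0494). Map4k2, a kinase that acts on LATS in parallel to MST, had -1.18 (adjusted p = 0.0419). The levels of these 4 did not overlap between the groups, as for 42.0% of all genes tested. With length and GC offsets Stk4 was still called (log2 fold change -0.59, adjusted p = 0.0439), whereas Taok1 (-0.39, adjusted p = 0.0797), Taok3 (-0.65, adjusted p = 0.129) and Map4k2 (-1.04, adjusted p = 0.0555) were not. In the 6 fits with a line left out, Stk4 was called in 1, Taok1 in 2, Taok3 in 1 and Map4k2 in 0. The LATS kinase genes, which encode the enzymes that phosphorylate YAP, were not called. Lats1 was at 129, 138 and 135 CPM in Myc_Utx lines and at 104, 106 and 111 CPM in Myc_p53 lines (log2 fold change 0.33, adjusted p = 0.0657), and Lats2 had -0.77 (adjusted p = 0.245). Stk3, which encodes MST2, the paralog of MST1, had the other sign than Stk4 and was not called. It was at 43.3, 49.25 and 44.5 CPM in Myc_Utx lines and at 39.2, 31.7 and 31.8 CPM in Myc_p53 lines (log2 fold change 0.42, adjusted p = 0.1095).

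Among junction and polarity regulators, 3 of 23 tested genes fell and 2 rose, which is near the 7.69% and 6.99% of all genes, with a median log2 fold change of -0.43. Fat4, a giant cadherin related to the fly Hippo regulator Fat, had few counts in Myc_p53 lines. It was at 103, 74.3 and 55.4 CPM in Myc_Utx lines and at 0.474, 11.5 and 1.14 CPM in Myc_p53 lines. Myc_p53 1, 2 and 3 had 3, 62 and 8 counts, so that the gene was tested through its level in Myc_Utx lines, and it left the test when at least 10 counts were required in every line. Its call is included in the 2 genes that rose, but it is not read as a result. The size of its fitted fold change rests on those few counts. Strn4, a striatin of the phosphatase complex that opposes MST, rose slightly (log2 fold change 0.51, adjusted p = 0.0334). Its relative Strn (-0.52, adjusted p = 0.0491), the polarity kinase gene Prkci (-1.01, adjusted p = 0.0492) and Rassf1, an MST-binding tumour suppressor (-0.92, adjusted p = 0.0414), fell. With length and GC offsets Strn was at -0.35 (adjusted p = 0.137), Prkci at -0.97 (adjusted p = 0.0591) and Rassf1 at -0.85 (adjusted p = 0.0547). Amot, the X-linked relative of Amotl2, had -1.16 (SE 0.31, adjusted p = 0.0537).

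The VGLL proteins compete with YAP for TEAD or stand in for it. Vgll4, which represses TEAD targets, was at 60.0, 43.4 and 55.04 CPM in Myc_Utx lines and at 79.6, 81.0 and 77.4 CPM in Myc_p53 lines. It fell (log2 fold change -0.59, SE 0.15, adjusted p = 0.0498), the nearest to the threshold of the called pathway genes, and with length and GC offsets it was -0.50 (adjusted p = 0.0809). Vgll3 was not called (log2 fold change -0.83, adjusted p = 0.645), and Vgll1 and Vgll2 had too few counts to be tested.

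A list of 18 further YAP targets was used, of which 17 were tested. Of the 17, 1 was called, Fjx1, and it was lower. That is 5.88%, beside 7.69% of all genes called lower and 14.7% called in either direction. The median log2 fold change was -0.48, with 13 below 0, beside -0.01 and 5846 of 11510 over all genes tested. Fjx1, a secreted relative of the fly kinase Four-jointed, was at 10.8, 5.81 and 4.68 CPM in Myc_Utx lines and at 34.9, 16.7 and 24.5 CPM in Myc_p53 lines (log2 fold change -1.84, SE 0.42, adjusted p = 0.0379). Myof, a membrane repair protein, was lower in every Myc_Utx line without passing the threshold (-0.85, adjusted p = 0.0770). Axl, a receptor tyrosine kinase, was at 503, 552 and 396 CPM against 313, 515 and 600 CPM (log2 fold change 0.02, SE 0.26, adjusted p = 0.960). Ccdc80 was the list's highest value at 1.13 (adjusted p = 0.320). The further targets thus ranged widely, as the 4 target genes above did.

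Ctgf, Cyr61 and Ankrd1 are also known to respond to the actin-regulated factor SRF and its MRTF co-activators. Of 17 SRF and MRTF genes tested 3 were called, all lower, with a median log2 fold change of -0.47. That is 17.6% of the list, near the 14.7% of all genes. For 2 of the 3, Cnn1 and Myl9, the Myc_Utx lines had 2 to 7 counts each, so that the genes passed the filter on low counts only through the Myc_p53 lines, where they are high. Their calls are included in the counts and shares given here, but they are not read as a result. Only their levels are given. Cnn1, the smooth muscle calponin, was at 0.598, 1.31 and 0.445 CPM in Myc_Utx lines and at 23.2, 72.8 and 90.3 CPM in Myc_p53 lines. Myl9, a myosin light chain, was at 0.598, 0.936 and 0.445 CPM against 5.21, 14.8 and 31.7 CPM. Mkl2, which encodes an MRTF, had -0.88 (SE 0.19, adjusted p = 0.0353), and with length and GC offsets -0.66 (adjusted p = 0.0788). Srf itself was similar in both groups (-0.10, SE 0.13, adjusted p = 0.616), as was Actb (-0.08, SE 0.21, adjusted p = 0.793). Acta2 reached 221 CPM in Myc_p53 3 and lay between 6.16 and 18.9 CPM in the other 5 lines.

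**Figure D4:**
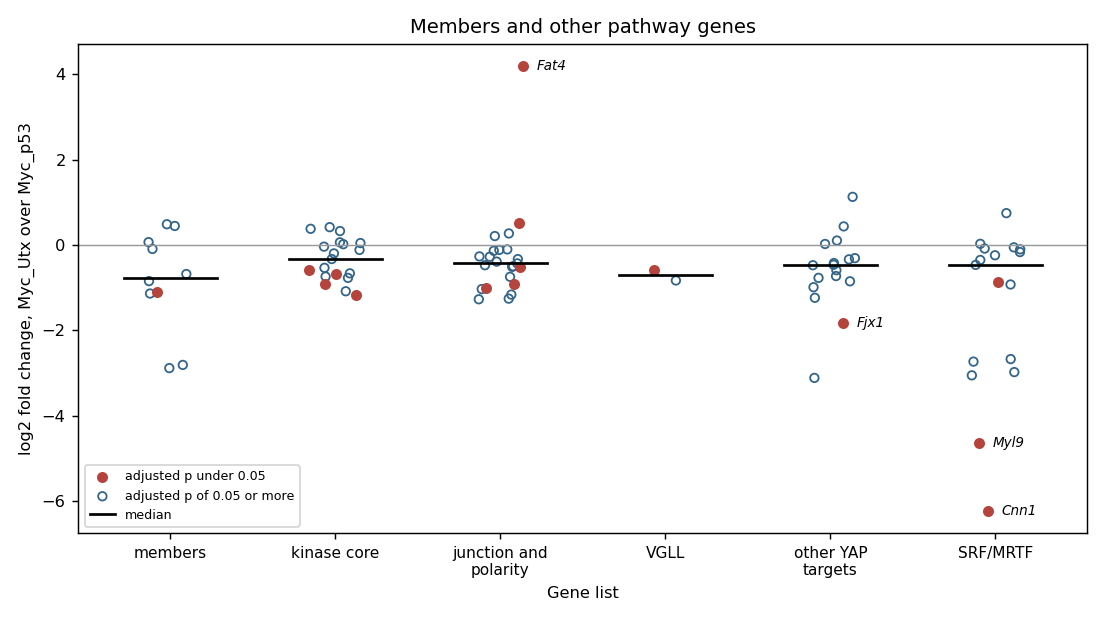
Log2 fold change (vertical axis, Myc_Utx over Myc_p53) of the 10 members and of the tested genes of the 5 other lists, with filled points for an adjusted p under 0.05 and a black bar for each median. The medians lie between -0.77 and -0.33, and Fat4, with 3, 62 and 8 counts in Myc_p53 lines, stands alone above 4. Cnn1 and Myl9, with 2 to 7 counts in each Myc_Utx line, are the lowest called points.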

How the data were processed

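RNA of 6 mouse liver tumour cell lines was sequenced, 3 per genotype as the labels give it. The table the authors deposited holds a raw count for each Ensembl gene and line, not normalized, and a transcript length. The submitters' processing notes name Trimmomatic 0.36, STAR 2.5.3a, featureCounts 1.6.3, DESeq2 1.20.0 and GRCm38, while the study's methods name HTSeq and a human build. The strand setting is not given in the sources used here. The test used edgeR 4.0.16 (R 4.3.3) with filterByExpr (minimum count 10), TMM and the quasi-likelihood F test over 11510 genes. Lines of a genotype varied by 33.4% (biological coefficient of variation). Standard errors were obtained from the fold change and its F statistic. CPM are scaled to the counts of tested genes. Total counts of 4656103 to 6937497 per line set the counting precision. Where a symbol had 2 identifiers, that with more counts was used. The fit was tested on simulated data.

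The members and lists were chosen with earlier results of these data known. All members were named, and of each pathway list up to 5 called genes by size of change. Kmt2c, Lats1, Lats2, Stk3, Amot, Vgll3, Myof, Axl, Ccdc80, Srf, Actb, Acta2 and the markers were named after their values were seen. Alternatives were no filter, at least 10 counts in every line, DESeq2 size factors, total counts only, offsets for length and GC content of GENCODE M21 transcripts (MASS 7.3.60.0.1, splines with 5 degrees of freedom), DESeq2 1.42.0 and leaving out each line.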

Additional observations from a re-analysis of the deposited data

How the results depend on the processing

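No paired analysis was made because the 6 lines came from tumours of different mice, and the labels give no pairs. Among the 10 members, 1 called lower became 3 when low counts were not filtered and 4 with DESeq2 (Wwtr1, Amotl2, Ankrd1 and Ctgf), and 0 to 1 with a line left out, while 0 were called higher in any of these fits. Wwtr1 kept its direction and was called in all 6 alternatives that used every line (adjusted p from 0.000523 to 0.0379), and in none of the 6 that left a line out. Among other pathway genes, 2 called higher became 1 with no filter or with at least 10 counts in every line, and 0 to 3 with a line left out. The 12 called lower became 4 with length and GC offsets, 26 with DESeq2 and 0 to 14 with a line left out. Over all genes, DESeq2 called 1277 higher and 1572 lower, and with a line left out 3 to 836 were called higher and 1 to 1118 lower. With a line left out, the log2 fold change of Yap1 ranged from -0.0433 (without Myc_p53 1, a turn of direction) to 0.146. That of Cyr61 ranged from -0.245 to 0.147, and it turned without Myc_Utx 2D (0.0704) and without Myc_p53 3 (0.147). Members without overlap numbered 4 to 6 when a line was left out, which can only keep or raise that number. The share over all genes was not computed for those sets. Without division by length, the log2 ratio of Yap1 to Wwtr1 went from 0.46 to 1.41 in Myc_Utx and from -0.76 to 0.20 in Myc_p53 lines, and that of Tead2 to Tead1 from 1.66 to 0.16 and from 0.36 to -1.14, by the construction of the ratio. The cause of the other shifts was not tested. Depth limits Cnn1 and Myl9, which had 2 to 7 counts in each Myc_Utx line.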

Other observations

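Across the 6 lines, the genes whose log2 CPM (with 0.5 added) followed a member most closely were listed among 9485 tested genes whose mean count reached 50. For Yap1 they were Tgfbr1 (Pearson's r 0.997 over 6 lines), the receptor for TGF-beta, Arhgef25 (0.990) and the collagen gene Col5a1 (0.990). All 3 were lowest in Myc_p53 1, where Yap1 was lowest too, and Col5a1 had 56.4 CPM there and 423 to 879 CPM in the other lines. For Ctgf they were Zfp469 (0.997), Katnbl1 (0.995) and Bcar1 (0.988), which encodes the adhesion scaffold p130Cas. Bcar1 was at 93.7, 173 and 104 CPM in Myc_Utx lines and at 207, 149 and 303 CPM in Myc_p53 lines, so that, as for Ctgf, Myc_Utx 2B was above Myc_p53 2. These are descriptions of 6 points in libraries of the same 2 groups, and the genes with the closest values out of many were taken.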
